A study of Homo sapiens with 9 samples.

Results

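The genes described here are 10 genes grouped under pre-mRNA splicing. They are the kinases CLK1 and CLK4, the cyclins CCNL1 and CCNL2, and the SR proteins SRSF5 and SRSF11. The others are the arginine-serine-rich proteins RSRP1, LUC7L3 and PNISR, and the repeat protein TTC14, whose part in splicing was not tested. The 10 genes were chosen by symbol, from earlier results of these data in which CCNL1, RSRP1 and TTC14 were far lower in pseudopodia than in whole cells. Each symbol matched 1 of 62709 genes with values. All 10 passed the filter on low counts that left 19426 genes to test, and each would have passed on its counts in pseudopodia alone. The libraries came from hTERT-MSC, a human mesenchymal stem cell line from adipose tissue immortalised with telomerase, and there were 3 libraries each of pseudopodia, cell body and whole cell. All 3 groups carry the same treatment label, PDGF-BB, a chemoattractant for mesenchymal cells. Serum-starved cells sat for 2 h on membranes with 3 µm pores and were then exposed to 50 ng/mL PDGF-BB for 1 h. Pseudopodia are the processes on the underside of the membrane, which were scraped off first, and the cell body fraction is what was scraped from the upper side afterwards. How the whole cell RNA was collected is not described separately, and the labels do not say whether replicates were separate cultures, so that p-values measure the spread between these libraries, which may be technical. All 9 libraries come from the same cell line.

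Splicing factors of the SR family carry stretches of alternating arginine and serine, the RS domain, and gather in nuclear speckles, bodies of the nucleus that store splicing factors. CLK kinases phosphorylate the RS domain and release SR proteins from speckles, and cyclins L1 and L2, partners of the CDK11 kinases, are themselves speckle proteins with RS-rich tails. Genes of this family are textbook cases of control by their own splicing, in which introns that are kept or exons that trigger decay limit the amount of translatable mRNA. CLK1 is known for transcripts that keep introns and wait in the nucleus.

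The stretch of each coding sequence with the longest run of alternating arginine and serine codons shows what most of these genes have in common. It is printed for 5 genes with long runs and for TTC14, the gene with the lowest density of such codons. Each line holds 20 codons (60 bases) of the main transcript in GENCODE release 29 on GRCh38, 5′ to 3′, with the alternating codons in capitals.
CCNL1: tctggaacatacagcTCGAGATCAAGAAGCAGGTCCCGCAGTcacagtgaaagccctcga
CCNL2: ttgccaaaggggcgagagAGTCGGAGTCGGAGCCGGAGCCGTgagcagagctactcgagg
RSRP1: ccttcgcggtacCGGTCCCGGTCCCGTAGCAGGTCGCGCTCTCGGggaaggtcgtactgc
SRSF5: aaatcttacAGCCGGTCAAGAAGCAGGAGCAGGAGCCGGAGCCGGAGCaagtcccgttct
LUC7L3: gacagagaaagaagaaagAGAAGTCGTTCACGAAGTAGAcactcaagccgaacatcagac
TTC14: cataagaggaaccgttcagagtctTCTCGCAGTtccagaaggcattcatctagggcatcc
The CCNL1 run covers codons 424 to 432 of 526 (gene at chr3:157146508-157160760, minus strand), and the CCNL2 run covers codons 380 to 387 of 520 (chr1:1385711-1399328, minus strand). In RSRP1 it covers codons 112 to 122 of 290 (chr1:25242237-25338213, minus strand), and in SRSF5 codons 213 to 225 of 272 (chr14:69726900-69772005, plus strand). In LUC7L3 it covers codons 292 to 298 of 432 (chr17:50719544-50756213, plus strand). The TTC14 run is only 3 codons long, 513 to 515 of 770 (chr3:180602130-180617828, plus strand). Of the genes not printed, CLK1 also has a run of only 3 codons and CLK4 one of 4, while PNISR has 7 and SRSF11 has 8.

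Library totals were 55469030 to 83894938 counts over the 9 libraries. The biological coefficient of variation was 31.9% for the pseudopodia libraries, 17.6% for those of the cell body and 5.09% for whole cells, so that the fractions scattered far more than whole cells. All 12 mesenchymal markers were measured, with sums of 27058 to 33073 CPM (counts per library total, scaled to a common size) in pseudopodia, 46918 to 55864 CPM in cell body and 47144 to 48330 CPM in whole cell. The 6 epithelial markers summed to 256 to 368 CPM in pseudopodia, 256 to 293 CPM in cell body and 147 to 161 CPM in whole cell, nearly all of it KRT8 and KRT18, while EPCAM stayed at or below 0.0646 CPM. The 5 endothelial markers summed to 63.8 to 80.1 CPM in pseudopodia, 76.1 to 107 CPM in cell body and 74.8 to 77.1 CPM in whole cell. Most of it was TEK, which averaged 46.2 CPM in pseudopodia, 69.3 CPM in cell body and 56.2 CPM in whole cell. CDH5 was also lowest in pseudopodia, with 2.80 CPM against 12.2 CPM in cell body and 14.8 CPM in whole cell. VWF and PECAM1 went the other way. VWF averaged 14.6 CPM in pseudopodia, 5.53 CPM in cell body and 1.32 CPM in whole cell. PECAM1 averaged 9.98 CPM in pseudopodia, 8.27 CPM in cell body and 3.45 CPM in whole cell, and KDR was at 0 in cell body and whole cell. The 7 blood cell markers summed to 65.1 to 80.9 CPM in pseudopodia, 73.6 to 83.8 CPM in cell body and 67.2 to 69.6 CPM in whole cell, mostly CD34, with PTPRC at or below 0.408 CPM. The 5 adipocyte markers summed to at most 1.25 CPM, with FABP4 at 0 in every library. The part of other cell types in the values of the splicing genes was not tested. Over all genes tested, 3605 were called higher in pseudopodia than in cell body and 3870 lower, by an adjusted p under 0.05 in the quasi-likelihood test of edgeR, and the split was 2310 and 5907 on log2(TPM + 1) but 4709 and 3619 with GC content and length taken into account. In bulk libraries, fewer cells of a type and less RNA per cell cannot be told apart.

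**Figure D1:**
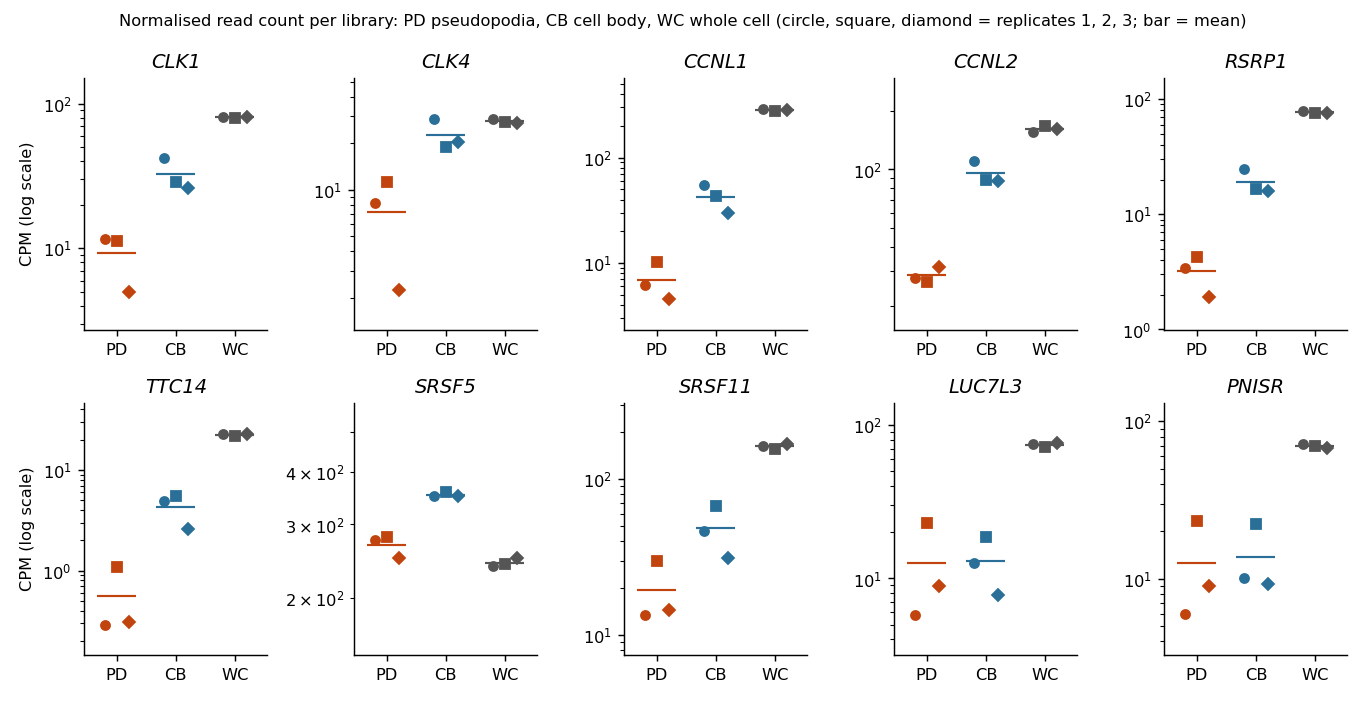
CPM of each of the 10 genes (log axis, own range per panel) in pseudopodia (PD), cell body (CB) and whole cell (WC) libraries; circles, squares and diamonds are replicates 1, 2 and 3, and the bar is the mean. CCNL1 averages 6.99 CPM in PD, 42.6 CPM in CB and 282.0 CPM in WC, LUC7L3 is low in both fractions, and SRSF5 peaks in CB.

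The 10 genes did not behave alike, and they are described here by which groups overlapped in CPM. CLK1, CCNL1, CCNL2, RSRP1, TTC14 and SRSF11 were lowest in pseudopodia, intermediate in cell body and highest in whole cell, with no overlap between any libraries of different groups. LUC7L3 and PNISR were low in both fractions, which overlapped, and high in whole cell. For PNISR the overlap rested on pseudopodia replicate 2 alone. In CLK4 and SRSF5 the cell body did not lie below whole cell in every library. These 2 genes did not share an order. CLK4 had 1 cell body library above whole cell by CPM, and its cell body mean was 81.7% of whole cell. On deposited TPM the 3 groups of CLK4 did not overlap. SRSF5 was highest in cell body and is not a gene that is high in whole cells, which goes against the name under which the genes were grouped. The stepwise order without overlap held for 6 of the 10 genes, against 8.49% of all genes tested. Whole cell libraries were above all 6 fraction libraries by CPM for 8 of 10 genes (25.2% of all genes tested). On deposited TPM, the authors' values scaled by gene length and library, this held for 9 of 10, with CLK4 added. The share of all genes was not counted on TPM, so the 9 of 10 has no background beside it. Levels in whole cells were part of how the genes were chosen, so these shares are descriptions. A mixture of the 2 fractions would lie between them, which whole cell did not in these genes. The order of the 3 groups is therefore not to be read as a gradient of location in the cell, and its cause was not tested.

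Of the cyclins L, CCNL1 had by far the smaller remainder in pseudopodia. CCNL1, cyclin L1, had 6.17, 10.2 and 4.57 CPM in pseudopodia, 54.9, 43.3 and 29.6 CPM in cell body and 286.9, 276.6 and 282.5 CPM in whole cell. CCNL2, cyclin L2, had 27.8, 26.4 and 31.7 CPM in pseudopodia, 110.9, 88.1 and 87.3 CPM in cell body and 156.5, 166.9 and 160.6 CPM in whole cell. In both genes every pseudopodia library lay below every cell body library, and every cell body library below every whole cell library. The mean of CCNL1 in pseudopodia was 2.48% of its whole cell mean, against 17.8% for CCNL2, and its mean in cell body was 15.1% of whole cell, against 59.2% for CCNL2. On the TPM scale, which allows levels of different genes to be compared, CCNL1 was below CCNL2 in both fractions, with means of 2.75 against 14.2 TPM in pseudopodia and 20.2 against 57.7 TPM in cell body. In whole cell CCNL1 was above CCNL2, with 151 against 110 TPM. The order of the 2 cyclins was thus opposite in fractions and whole cells in every library.

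Pseudopodia against cell body is the comparison that could be tested, because whole cell values were used in choosing the genes; it still shares its pseudopodia libraries with that choice. CCNL1 fell by 2.60 ± 0.309 on the log2 scale (SE, 3 libraries a group, adjusted p = 0.000146, edgeR). CCNL2 fell by 1.74 ± 0.136 (adjusted p = 3.23e-06). Both differences were larger than the spread between libraries and kept their call when any 1 library was left out.

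CLK1 and CLK4 phosphorylate SR proteins. On the TPM scale CLK1 averaged 6.26 against 3.15 for CLK4 in pseudopodia, 26.2 against 11.8 in cell body and 73.5 against 16.4 in whole cell, so that their levels lay furthest apart in whole cell. CLK1 had 11.7, 11.3 and 5.03 CPM in pseudopodia, 42.3, 28.7 and 26.2 CPM in cell body and 81.1, 79.9 and 80.3 CPM in whole cell, in 3 groups that did not overlap. CLK4 had 8.27, 11.2 and 2.26 CPM in pseudopodia, 28.9, 18.8 and 20.3 CPM in cell body and 28.6, 27.6 and 27.0 CPM in whole cell. The highest cell body library of CLK4 was above all 3 whole cell libraries, while the other two were below them. Relative to whole cell, CLK1 averaged 11.6% in pseudopodia and 40.3% in cell body, and CLK4 averaged 26.1% in pseudopodia and 81.7% in cell body. Against cell body, CLK1 fell by 1.79 ± 0.303 in pseudopodia on the log2 scale (adjusted p = 0.00130, edgeR) and CLK4 fell by 1.64 ± 0.458 (adjusted p = 0.0193, edgeR). Of the 9 fits that left out a library, the CLK4 call was lost in the one without cell body replicate 1, where the log2 difference was -1.41 and its adjusted p 0.0651. With only the 6 fraction libraries in the fit the difference was -1.67 (adjusted p = 0.0572), and with no low-count filter it was -1.62 (adjusted p = 0.0995).

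The other kinases of the family did not share one pattern. CLK2, a paralog of CLK1 and CLK4, averaged 10.1 CPM in pseudopodia, 11.9 CPM in cell body and 29.6 CPM in whole cell. CLK3 averaged 56.4 CPM in pseudopodia, 46.4 CPM in cell body and 41.6 CPM in whole cell. CLK2 was called lower in pseudopodia than in whole cell (log2 difference -1.55, adjusted p = 4.84e-06, edgeR) and CLK3 was called higher (0.44, adjusted p = 0.0134, edgeR). Neither passed the threshold between pseudopodia and cell body, with log2 differences of -0.23 for CLK2 (adjusted p = 0.206) and 0.28 for CLK3 (adjusted p = 0.117). These paralogs were singled out after their values had been seen.

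**Figure D2:**
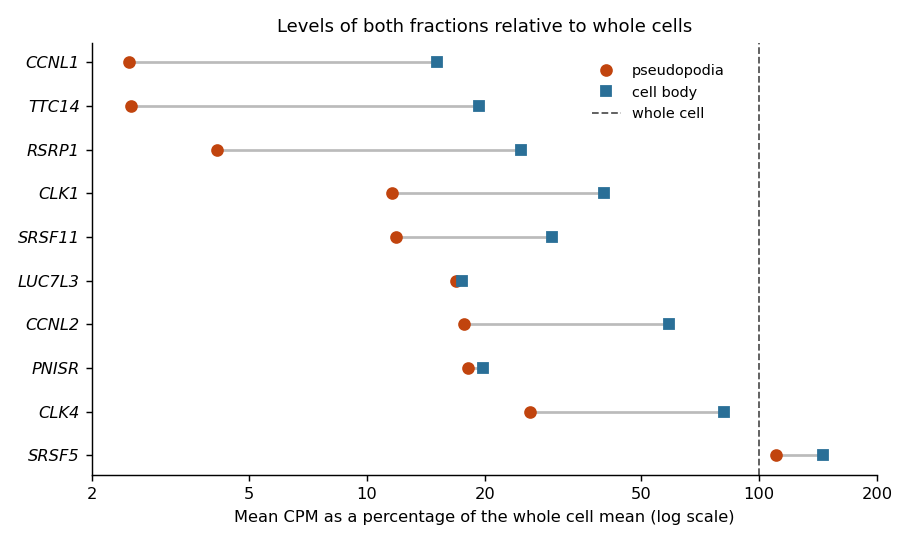
Mean CPM of pseudopodia (circles) and cell body (squares) as a percentage of the whole cell mean (dashed line at 100), on a log axis, for the 10 genes in order of the pseudopodia percentage. CCNL1 and TTC14 lie furthest left at 2.48% and 2.51%, the symbols of LUC7L3 and PNISR nearly coincide, and SRSF5 lies above 100 in both fractions.

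RSRP1 and TTC14 were, with CCNL1, the genes under 5% of their whole cell level in pseudopodia. RSRP1, an arginine-serine-rich protein found in the nucleus, had 3.44, 4.24 and 1.91 CPM in pseudopodia, 24.6, 16.5 and 15.8 CPM in cell body and 78.3, 75.9 and 75.8 CPM in whole cell. TTC14, named for its tetratricopeptide repeats, had 0.289, 1.09 and 0.309 CPM in pseudopodia, 4.95, 5.47 and 2.58 CPM in cell body and 23.1, 21.6 and 22.6 CPM in whole cell. No libraries of different groups overlapped for either gene. The TTC14 values in pseudopodia rest on 20, 80 and 16 counts, so that its percentage there is the least certain of the 10. RSRP1 averaged 4.17% of its whole cell level in pseudopodia and 24.7% in cell body, and TTC14 averaged 2.51% in pseudopodia and 19.4% in cell body. Against cell body, RSRP1 fell by 2.56 ± 0.275 in pseudopodia on the log2 scale (adjusted p = 4.88e-05, edgeR) and TTC14 fell by 2.91 ± 0.489 (adjusted p = 0.00139, edgeR). Without pseudopodia replicate 2, which held 80 of its counts in that group, the TTC14 difference was -3.85. RSRP1 overlaps TMEM50A on the opposite strand, a gene with 60028 counts over all libraries against 21277 for RSRP1, and the strand setting is not given in the sources used here, so reads of the 2 genes may have been mixed.

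The SR proteins SRSF5 and SRSF11 followed different orders over the groups. SRSF11 had 13.6, 30.0 and 14.5 CPM in pseudopodia, 46.6, 67.1 and 31.3 CPM in cell body and 163.0, 157.0 and 168.3 CPM in whole cell. SRSF5 had 275.5, 280.2 and 249.9 CPM in pseudopodia, 350.5, 358.7 and 351.2 CPM in cell body and 238.1, 241.3 and 249.3 CPM in whole cell. For SRSF11 all 3 groups stood apart, whereas for SRSF5 the cell body stood above the other groups and pseudopodia stood just above whole cell. SRSF5 averaged 111% of whole cell in pseudopodia by CPM but 80.5% by TPM (170 TPM in pseudopodia, 212 TPM in whole cell), so the direction of that difference depends on the scale. In cell body it averaged 146% of whole cell by CPM and 129% by TPM.

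Between the fractions, SRSF11 fell by 1.32 ± 0.344 in pseudopodia on the log2 scale (adjusted p = 0.0143, edgeR). This call was lost without pseudopodia replicate 3 (-1.15, adjusted p = 0.0810), without cell body replicate 2 (-1.01, adjusted p = 0.0515) and with no low-count filter (adjusted p = 0.0726). SRSF5 fell by 0.40 ± 0.106 (adjusted p = 0.0119, edgeR), the smallest of the called differences, and its sign turned to 0.14 (adjusted p = 0.469) once GC content and gene length were taken into account in each library.

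LUC7L3 and PNISR were the genes in which pseudopodia and cell body libraries overlapped. LUC7L3, a human relative of yeast Luc7 of the U1 snRNP, had 5.78, 23.1 and 8.87 CPM in pseudopodia, 12.6, 18.6 and 7.79 CPM in cell body and 75.2, 71.7 and 76.0 CPM in whole cell. PNISR, a serine- and arginine-rich partner of the speckle protein pinin, had 5.94, 23.1 and 8.95 CPM in pseudopodia, 10.0, 22.1 and 9.26 CPM in cell body and 71.7, 69.7 and 67.7 CPM in whole cell. The 2 fractions overlapped for both genes, every whole cell library lay above every fraction library, and replicate 2 was the highest in pseudopodia and in cell body. In PNISR the other pseudopodia libraries, at 5.94 and 8.95 CPM, lay below every cell body library. In LUC7L3 the fractions overlapped without replicate 2 as well. As a percentage of whole cell, LUC7L3 averaged 16.9% in pseudopodia and 17.5% in cell body, and PNISR 18.2% in pseudopodia and 19.8% in cell body.

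Pseudopodia and cell body did not differ detectably for these genes: the log2 difference was -0.05 ± 0.475 for LUC7L3 (adjusted p = 0.950, edgeR) and -0.12 ± 0.489 for PNISR (adjusted p = 0.864, edgeR). The standard errors are wide enough that a difference of the size seen for SRSF5 would not have been detected, and a 2-fold difference might have been missed as well. The sign changed with single libraries: without pseudopodia replicate 2 the differences were -0.83 (adjusted p = 0.0669) for LUC7L3 and -0.90 (adjusted p = 0.0760) for PNISR, and without cell body replicate 2 they were 0.30 and 0.39. Without pseudopodia replicate 1 they were 0.30 and 0.22, and without pseudopodia replicate 3 they were 0.15 and 0.07. Whether LUC7L3 and PNISR differ from the other 8 genes in this contrast was not tested. The antisense gene AL513550.1 overlaps PNISR, with 1760 counts against 20703 for PNISR.

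Counted over all 10 genes, 8 were called lower in pseudopodia than in cell body, against 19.9% of all genes tested, and 0 were called higher, against 18.6%. In 7 of 10 the difference was at least 2-fold, against 15.7% of all genes, and in 8 of 10 every pseudopodia library lay below every cell body library, against 24.5%. The median log2 difference of the 10 genes was -1.69, against -0.05 for all genes tested. Pseudopodia against whole cell, the contrast behind the choice, had a median of -2.81 for the 10 genes (all genes -0.12) and at least 2-fold lower values in 9 of 10 (26.6% of all genes). Its log2 differences ran from -5.33 for CCNL1 to 0.14 for SRSF5. Cell body against whole cell had a median of -1.88 (all genes -0.06), at least 2-fold lower values in 7 of 10 (18% of all genes), and a range from -2.73 for CCNL1 to 0.54 for SRSF5. These comparisons share libraries with one another. Low values in pseudopodia were known when the genes were chosen, so the counts and medians are descriptions.

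The summed level of the 10 genes was 328 to 421 CPM in pseudopodia, 581 to 686 CPM in cell body and 1188 to 1210 CPM in whole cell. Without SRSF5, which alone made up most of the sum in pseudopodia, it was 78.2 to 141 CPM in pseudopodia, 230 to 336 CPM in cell body and 947 to 964 CPM in whole cell. A list of 7 nuclear long noncoding RNAs moved the same way, at 214 to 222 CPM in pseudopodia, 356 to 454 CPM in cell body and 875 to 905 CPM in whole cell. Of these 7, 6 were called lower in pseudopodia than in cell body (19.9% of all genes tested), 7 lower in pseudopodia than in whole cell (33.1%) and 5 lower in cell body than in whole cell (20.5%), and 0 were called higher in any of these. The part of nuclear RNA content in the values of the splicing genes was not tested.

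Within that noncoding list, the lowest log2 differences between pseudopodia and cell body were -3.28 ± 0.147 for MEG3 (adjusted p = 8.00e-08, edgeR) and -3.06 ± 0.247 for MIAT (adjusted p = 3.77e-06, edgeR). The smallest called were -0.78 ± 0.162 for LINC-PINT (adjusted p = 0.00286) and -0.82 ± 0.152 for TUG1 (adjusted p = 0.00134). NEAT1, the RNA scaffold of paraspeckles, averaged 128 CPM in pseudopodia, 124 CPM in cell body and 433 CPM in whole cell. Its difference between the fractions was 0.05 (adjusted p = 0.755, edgeR). MALAT1, the RNA of nuclear speckles, averaged only 0.233 CPM in pseudopodia, 0.851 CPM in cell body and 3.68 CPM in whole cell. It is usually among the most abundant nuclear RNAs, so its count here is uncertain.

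**Figure D3:**
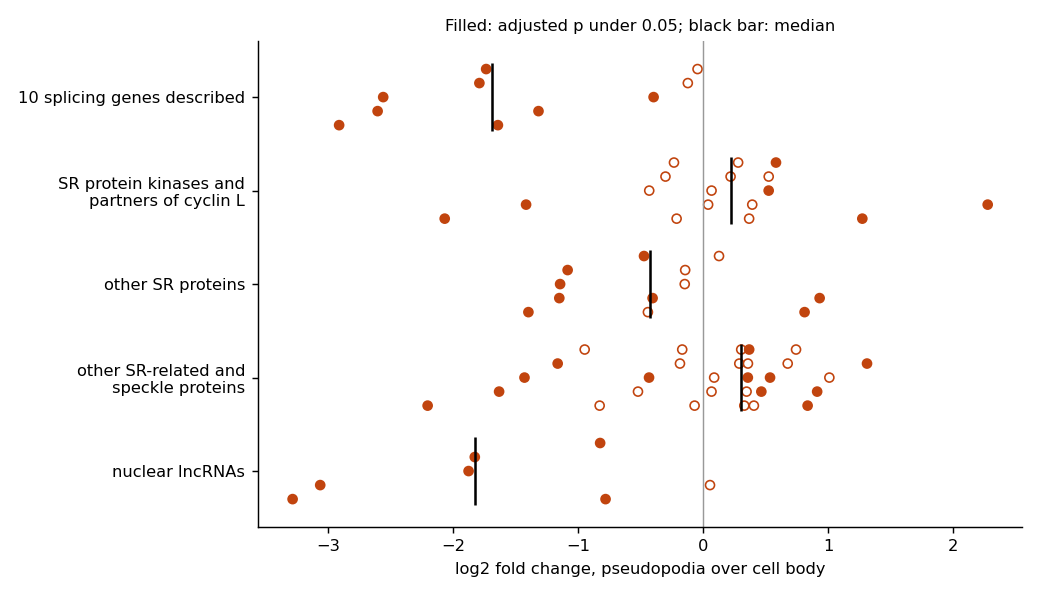
Log2 fold change of pseudopodia over cell body for the 10 genes and 4 lists of related genes; each circle is a gene, filled where the adjusted p was under 0.05, and black bars are medians. The 10 genes and the nuclear lncRNAs have medians of -1.69 and -1.83, while the kinase and cyclin list and the SR-related list have medians of 0.22 and 0.30.

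The wider machinery was read from 3 lists that hold none of the 10 genes. Of 17 kinases that act on SR proteins and partners or relatives of cyclin L, 4 were called higher in pseudopodia than in cell body and 2 were called lower, beside 18.6% and 19.9% of all genes tested, with a median log2 difference of 0.22 (all genes -0.05). Lowest were the P-TEFb cyclins CCNT2 at -2.07 ± 0.327 (adjusted p = 0.000848, edgeR) and CCNT1 at -1.42 ± 0.187 (adjusted p = 0.000134, edgeR). Highest were CDK11B at 2.28 ± 0.139 (adjusted p = 6.26e-07, edgeR) and CDK11A at 1.27 ± 0.389 (adjusted p = 0.0232, edgeR), the kinases that cyclins L bind. CDK11B averaged 104 CPM in pseudopodia, 21.6 CPM in cell body and 26.0 CPM in whole cell, the opposite order to its partners CCNL1 and CCNL2 in pseudopodia. The CDK11 genes are near-identical copies, and how reads were split between them is uncertain.

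Of 12 other SR proteins, 2 were called higher in pseudopodia than in cell body and 6 were called lower (18.6% and 19.9% of all genes tested), with a median of -0.42. SRSF10 and SRSF6 were lowest, at -1.40 ± 0.207 (adjusted p = 0.000303, edgeR) and -1.15 ± 0.106 (adjusted p = 9.26e-06, edgeR). SRSF4 and SRSF1 were highest, at 0.93 ± 0.115 (adjusted p = 7.84e-05) and 0.81 ± 0.131 (adjusted p = 0.000560). In cell body against whole cell, 5 of the 12 were called higher and 0 lower, beside 18.1% and 20.5% of all genes tested. SRSF6 averaged 73.0 CPM in pseudopodia, 162 CPM in cell body and 102 CPM in whole cell.

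Of 29 other SR-related and speckle proteins, 7 were called higher in pseudopodia than in cell body and 5 were called lower, shares near the 18.6% and 19.9% of all genes tested (median 0.30). ARGLU1, an arginine- and glutamate-rich protein with a retained intron of its own, was lowest at -2.20 ± 0.282 (adjusted p = 0.000202, edgeR). It averaged 10.9 CPM in pseudopodia, 50.3 CPM in cell body and 126 CPM in whole cell, close to the order of CLK1. The RNA helicase DDX39B was at -1.63 ± 0.143 (adjusted p = 6.46e-06). ACIN1 and RBM6 were highest, at 1.31 ± 0.125 (adjusted p = 1.27e-05) and 0.91 ± 0.108 (adjusted p = 5.98e-05). Against whole cell, 9 of the 29 were called higher and 14 lower in pseudopodia (27.9% and 33.1% of all genes tested), and 4 were called higher and 12 lower in cell body (18.1% and 20.5%).

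Over the 4 lists together, 13 of 65 genes were called higher in pseudopodia than in cell body and 19 were called lower (18.6% and 19.9% of all genes tested). The split was 7 and 26 on log2(TPM + 1), and 16 and 17 with GC content and length taken into account. In pseudopodia against whole cell it was 19 higher and 30 lower (27.9% and 33.1% of all genes tested), 8 and 38 on log2(TPM + 1), and 28 and 20 with GC content and length. In cell body against whole cell it was 13 higher and 19 lower (18.1% and 20.5% of all genes tested), 9 and 32 on log2(TPM + 1), and 21 and 17 with GC content and length. The balance of higher and lower calls in these lists therefore depends on the scaling. Of the 10 genes, 0 were called higher in pseudopodia than in cell body under any of these settings. They were chosen with low values in the same pseudopodia libraries known, so this count is a description and cannot be set against the lists. With GC content and length taken into account, the log2 differences were 0.14 for SRSF5, 0.22 for LUC7L3 and 0.27 for PNISR.

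The coding sequences share what their grouping as splicing genes already implies, a high content of arginine-serine codons. Adjacent Arg-Ser or Ser-Arg codon pairs had a median of 6.69 per 100 codons in the 10 genes, against 0.761 in 13913 protein-coding genes tested. The 95th percentile of all genes was 1.95, and 9 of the 10 exceeded it. RSRP1 had 20.3 and SRSF5 19.1 pairs per 100 codons, and the next were LUC7L3 with 8.33, SRSF11 with 8.26, CCNL1 with 6.84, CCNL2 with 6.54 and PNISR with 6.46. The kinases CLK4 and CLK1 had 2.49 and 2.48, and TTC14 had 1.56. As a percentage of the cell body mean in pseudopodia, the least dense genes stood at 13.0% (TTC14), 28.8% (CLK1) and 31.9% (CLK4). The 5 next stood at 91.7% (PNISR), 30.0% (CCNL2), 16.4% (CCNL1), 40.1% (SRSF11) and 96.7% (LUC7L3), and the densest at 76.0% (SRSF5) and 16.9% (RSRP1).

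**Figure D4:**
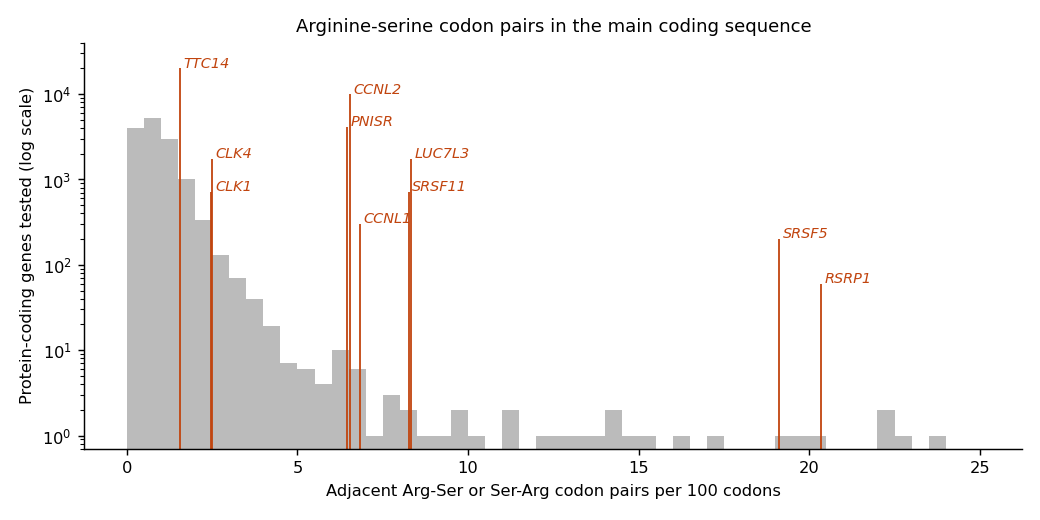
Number of protein-coding genes tested (grey bars, log axis) by the density of adjacent arginine-serine codon pairs in the main coding sequence, with the 10 genes as lines whose heights only separate the labels. RSRP1 at 20.3 and SRSF5 at 19.1 lie far right of the median of 0.761, and TTC14 at 1.56 lies within the bulk.

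Other sequence features were read from the same annotation. GC content of the longest transcript had a median of 36.7% in the 10 genes, against 48.4% in all protein-coding genes tested, and only CCNL2 (50.8%) and RSRP1 (50.3%) were at 45% or more. Annotated transcripts per gene had a median of 17.5, against 7 in all. Transcripts annotated with a retained intron numbered 16 for CCNL1, 9 for CCNL2, 8 each for CLK1 and SRSF5, 7 for CLK4, 4 for RSRP1 and 3 for LUC7L3, and 0 for TTC14, SRSF11 and PNISR. At least 1 such transcript was annotated for 7 of the 10, against 56.3% of all genes, and 4 of the 10 were above the 95th percentile of 7. All 10 had at least 1 transcript annotated as a target of nonsense-mediated decay, against 41.6% of all genes. The gene-level counts do not separate transcripts, so the level of any retained-intron transcript was not measured.

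The pseudopodia libraries differed from one another along GC content. Pseudopodia replicate 2 was the highest of its group for 8 of the 10 genes, against 32% of all genes tested. Among protein-coding genes with under 45% GC, it was the highest for 67.5% of 5223, and among those with 45% or more for 11.0% of 8690. Relative to the mean of replicates 1 and 3, it was 3.64-fold for TTC14, 3.16-fold for LUC7L3 and 3.10-fold for PNISR, and 0.886-fold for CCNL2. The median log2 difference of pseudopodia against cell body was -0.37 for the genes under 45% GC and 0.10 for the others, and against whole cell it was -0.70 and 0.29. With GC content and length taken into account, 7 of the 10 genes were called lower in pseudopodia than in cell body, beside 3619 of all 19426 genes tested. SRSF5 was the call lost, and the SRSF11 difference went from -1.32 to -0.77 (adjusted p = 0.0457, edgeR). GC content and length were adjusted together, so their parts cannot be told apart. The median of the 10 genes against whole cell was then -1.85 in place of -2.81 for pseudopodia, and -1.31 in place of -1.88 for cell body.

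The genes outside the group whose levels over the 9 libraries came closest to its mean profile were ZNF195, PLCG1-AS1, ZNF431, MMP16, NSUN5P2, DNAJB14, RPL23P2 and NPY2R. Likeness is the root mean square distance of centred log2 CPM from the mean of the 10 genes, which was 0.13 for ZNF195 and 0.24 for NPY2R, against a median of 1.34 over all genes tested. ZNF195, a zinc finger gene, averaged 0.865 ± 0.395 CPM in pseudopodia, 2.60 ± 0.689 CPM in cell body and 8.96 ± 0.429 CPM in whole cell (SD, 3 libraries each). DNAJB14, a co-chaperone of the endoplasmic reticulum, averaged 5.24 ± 3.46 CPM in pseudopodia, 12.4 ± 3.30 CPM in cell body and 44.7 ± 1.37 CPM in whole cell. MMP16, a membrane-bound metalloproteinase, averaged 2.91 ± 1.03 CPM in pseudopodia, 8.24 ± 1.39 CPM in cell body and 23.3 ± 1.95 CPM in whole cell. NSUN5P2, RPL23P2 and NPY2R averaged under 1 CPM even in whole cell. Of the 10 genes themselves, SRSF11 (0.21) and CLK1 (0.30) lay nearest to the mean profile, and TTC14 (0.99) and SRSF5 (1.41) furthest from it, SRSF5 beyond the median of all genes.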

How the data were processed

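The authors deposited whole-number read counts for each gene in 9 libraries of 3 groups, a table that comes from featureCounts per the labels, and a TPM table for each library. GRCh38 and DESeq2 are named per the submitters' processing notes. No aligner, annotation release or strand setting is named, as these were not given in the sources used here. Each TPM value was the count divided by a fixed length for the gene and a fixed factor for the library. The table held 62709 genes and 1 blank line, which was left out, and 0 columns were unmapped.

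The 10 genes and all lists were chosen with earlier results of these data known. All 9 libraries entered 1 fit in edgeR 4.0.16 (R 4.3.3), with TMM factors, edgeR's filter by group (19426 genes), robust quasi-likelihood tests and Benjamini-Hochberg adjustment over all genes. CPM values were scaled by library total and TMM factor. Genes named outside the 10 are the 2 highest and 2 lowest called of each list in pseudopodia against cell body, and the 8 most alike in profile. Exceptions are said to be chosen after their values were seen, or are NEAT1 and MALAT1, chosen likewise. Sequence features came from GENCODE release 29, which held 58219 of the genes, with codons read from the main (APPRIS principal) coding transcript and GC content from the longest transcript, and 1 gene of the lists was matched by identifier because its symbol differs. On simulated counts of 18829 genes for pseudopodia against cell body, 56% of genes lowered 2-fold, 8% of those raised 1.5-fold and 94% of those raised 4-fold were recovered, with 11 unchanged genes called. The simulation gave each gene the same spread, with a cap, in every group and held no trend with GC content, unlike these libraries. Its rates may therefore not hold for the real data. Between replicates, chi-square per gene was at least 5.04, so none was a duplicate library. Alternatives were DESeq2 1.42.0, its size factors alone, limma-voom with sample weights (limma 3.58.1), limma on log2(TPM + 1) and log2(TPM + 0.1), other low-count filters (5 CPM in 3 libraries, or none beyond 1 count), only 6 libraries, GC and length offsets, the replicate block, and leaving out each library.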

Additional observations from a re-analysis of the deposited data

How the results depend on the processing

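CLK1, CCNL1, CCNL2, RSRP1 and TTC14 stayed called lower in pseudopodia than in cell body under all 20 alternatives. The number of the 10 genes called was 8 except for 6 with no low-count filter, 7 with the 6 fraction libraries alone, 7 with GC and length offsets (with or without the replicate block), and 7 to 8 with 1 library left out. With GC and length offsets the log2 differences of pseudopodia against cell body were 0.14 for SRSF5, 0.22 for LUC7L3 and 0.27 for PNISR. With the replicate block added to these offsets they were 0.12, 0.18 and 0.27. With 1 library left out, LUC7L3 ranged from -0.83 to 0.30, PNISR from -0.90 to 0.39 (-0.92 and -1.07 with limma-voom), CLK4 from -2.09 to -1.22 and SRSF11 from -1.78 to -1.01.

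The median log2 difference of the 10 genes in pseudopodia against whole cell was -3.46 with limma-voom, -3.42 on log2(TPM + 0.1), -1.85 with GC and length offsets, -1.88 with these and the replicate block, and -3.30 to -2.66 with 1 library left out. In cell body against whole cell it was -1.31 with the offsets, -1.37 with these and the block, and -1.98 to -1.68 with 1 library left out. Limma-voom called 50 genes of the lists in cell body against whole cell, against 32; apart from the offsets, which adjust for GC content by construction, the cause was not tested. Over all genes 6034 to 8581 were called in pseudopodia against cell body with 1 library left out, against 7475. The median of all genes there shifted to -0.17 and -0.31 on the TPM scales, with 2297 higher and 6090 lower calls on log2(TPM + 0.1), and to 0.06 with the offsets and also with the block added, which gave 4431 higher and 3459 lower calls.

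The labels give no pairing of pseudopodia and cell body libraries beyond the replicate number. Over all genes, deviations of same-numbered libraries correlated at 0.08, -0.003 and 0.09, which cannot settle whether they came from the same cultures. With the replicate block 6920 genes were called, the calls of the 10 genes stayed at 8, and SRSF5 had an adjusted p of 0.0352. TTC14 in pseudopodia rests on 20, 80 and 16 counts, and LUC7L3 and PNISR scattered within both fractions.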

Other observations

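As with LUC7L3 and PNISR, both fractions were on average below whole cell in many genes of the SR-related list, of which 6 are given here. Other genes of that list, ARGLU1 and DDX39B among them, had both fractions below whole cell too. The 6 were picked out after their values had been seen, for that order, so their values are a description. SCAF11, an SR-related protein that binds splicing factors, averaged 18.1 CPM in pseudopodia, 20.6 CPM in cell body and 96.3 CPM in whole cell. PNN, the pinin to which PNISR binds, averaged 15.6 CPM in pseudopodia, 9.31 CPM in cell body and 43.3 CPM in whole cell. SREK1 averaged 15.2 CPM in pseudopodia, 12.0 CPM in cell body and 51.2 CPM in whole cell, and U2SURP averaged 14.9 CPM in pseudopodia, 11.3 CPM in cell body and 50.4 CPM in whole cell. NKTR averaged 9.49 CPM in pseudopodia, 18.3 CPM in cell body and 99.2 CPM in whole cell, and BCLAF1 averaged 17.7 CPM in pseudopodia, 31.6 CPM in cell body and 99.4 CPM in whole cell.

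In pseudopodia against whole cell the log2 differences of these 6 ran from -3.39 for NKTR to -1.48 for PNN, and in cell body against whole cell from -2.44 for NKTR to -1.66 for BCLAF1. Between pseudopodia and cell body they ran from -0.95 for NKTR to 0.74 for PNN, so the fractions were not at the same level in each of them.

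DYRK3, a kinase that acts on speckle proteins, went the other way, at 132 CPM in pseudopodia, 126 CPM in cell body and 21.3 CPM in whole cell, with log2 differences from whole cell of 2.63 in pseudopodia (adjusted p = 8.54e-07, edgeR) and 2.56 in cell body (adjusted p = 3.66e-06, edgeR). The fractions of DYRK3 differed by 0.07 (adjusted p = 0.788, edgeR). It too was singled out after its values had been seen. LUC7L and LUC7L2, paralogs of LUC7L3 also singled out afterwards, averaged 28.1 and 26.3 CPM in pseudopodia, 31.5 and 18.2 CPM in cell body and 36.2 and 27.4 CPM in whole cell.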
